A study of Mus musculus with 186 samples.

Results

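The RNA of 10 cell-cell adhesion genes was followed in single mouse mammary epithelial cells: the classical cadherins Cdh1 and Cdh3, the desmosomal cadherins Dsg2, Dsg3, Dsc2 and Dsc3, the plakin Dsp, and the armadillo proteins Jup, Pkp1 and Pkp2. The genes were chosen by name as a family, not by their values, and were found by Entrez identifier among the 27179 gene identifiers of each cell's count file. Cells came from the mammary glands of adult FVB/NJ mice (10-week-old females), untreated, and each library was the polyadenylated RNA of 1 cell captured with the Fluidigm C1, whose microfluidic circuit makes cDNA from each trapped cell separately. Both populations were sorted as lineage-negative cells, without erythroid, endothelial and leukocyte surface antigens: 96 basal cells were CD29hi CD24+ and 90 luminal cells were CD29lo CD24+. They came from 8 mice, but no label ties a cell to an animal. Their PCR plates were A or B for basal cells and B or C for luminal ones, which makes B the only plate with both. Each population is therefore 1 sample with no replicate, no test between populations was possible, and differences are described by size alone.

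In an epithelium, classical cadherins bind their like on the neighbouring cell and hold the adherens junction to actin through catenins. Desmosomes are the second kind of junction: desmogleins (Dsg) and desmocollins (Dsc) bridge the cells, plakoglobin (Jup) and plakophilins (Pkp) dock on their tails, and desmoplakin (Dsp) ties the plaque to keratin filaments. In the mammary duct, E-cadherin is the cadherin classically ascribed to the inner luminal layer and P-cadherin that of the outer basal, or myoepithelial, layer.

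The depth thresholds kept 72 of the 96 basal cells, 50 from plate A and 22 from plate B. They kept 76 of the 90 luminal cells, 24 from plate B and 52 from plate C. Passing basal cells held 69940 to 1969487 assigned read pairs (reads, for short) with a median of 1190360, and luminal cells 105673 to 3229218 with a median of 1461120. The sorted identities were checked with 8 markers for each lineage. The basal markers (among them Krt5, Krt14 and Acta2) summed to 11094 CPM (reads relative to all reads kept, so that libraries of unequal depth compare) in basal cells and to 192 CPM in luminal cells, while the luminal markers (among them Krt8, Krt18 and Epcam) to 888 and 12702 CPM. In 3 of 72 basal cells and 1 of 76 luminal cells the other lineage's markers outweighed their own. A median of 1570 genes was detected in basal cells of plate B once each cell was thinned to 50000 reads, against 2894.5 in basal cells of plate A, 3194.5 in luminal cells of plate B and 3429 in luminal cells of plate C. Fewer cells with a transcript, less RNA per cell and lower capture cannot be told apart in such summed values.

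RefSeq promoter windows (GRCm38.p6, the assembly known as mm10) of 300 bases around a gene's start were at hand for 2 of the 10 genes, Dsp and Jup. They are shown because no other member had an entry, and both of these plaque genes lay within 2-fold between the populations. Cdh1, Cdh3, Dsg2, Dsg3, Dsc2, Dsc3, Pkp1 and Pkp2 had no entry. The Dsp window is chr13:38151044-38151343 on the plus strand and the Jup window chr11:100397741-100398040 on the minus strand, each read 5′ to 3′ along the gene. By the gene ends used here, the Dsp window covers 250 bases before and 50 within the gene, and the Jup window 201 before and 99 within. Capitals mark matches on either strand to GGGCGG (the GC box), CCAAT and CACCTG (an E-box that Snail and Slug repressors can bind).
Dsp promoter: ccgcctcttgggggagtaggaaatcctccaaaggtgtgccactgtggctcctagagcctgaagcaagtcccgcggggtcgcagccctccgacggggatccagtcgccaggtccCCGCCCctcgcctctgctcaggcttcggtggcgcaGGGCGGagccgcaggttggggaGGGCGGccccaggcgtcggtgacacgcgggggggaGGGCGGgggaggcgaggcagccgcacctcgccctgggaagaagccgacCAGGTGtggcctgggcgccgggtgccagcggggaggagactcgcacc
Jup promoter: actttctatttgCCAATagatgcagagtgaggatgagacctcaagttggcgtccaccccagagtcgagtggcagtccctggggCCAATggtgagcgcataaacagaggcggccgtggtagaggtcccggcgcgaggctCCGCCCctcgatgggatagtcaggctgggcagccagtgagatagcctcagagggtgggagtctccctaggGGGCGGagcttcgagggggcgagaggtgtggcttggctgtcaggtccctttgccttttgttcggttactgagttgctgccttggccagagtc
The Dsp window held 4 GC boxes and 1 E-box, the latter at bases 254 to 259 of the window, and the Jup window held 2 GC boxes and 2 CCAAT matches. Neither held the letters of the TATA box, searched as TATAAA. The AP-1 motif, searched as TGANTCA, and the Grainyhead motif, searched as AACCGGTT, had no match in these windows either. Over the 32851 mouse promoter windows of this length, 35.7% held the GC box, 37.4% the CCAAT letters, 20.2% the E-box, 13.6% the TATA letters, 7.81% the AP-1 motif and 0.146% the Grainyhead motif. GC content was 73.0% in the Dsp and 60.67% in the Jup window, where the median of all windows was 52.67%. No motif in these letters overlapped another, and a match is a description of the letters only.

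All 10 members passed the gene filter of 1 CPM in at least 3 cells, which kept 14776 genes. Reads were summed over the cells of each population, and log2 ratios compare the luminal sum with the basal sum, both in CPM plus 1 CPM, so that ratios of low genes are understated. Cdh1 and Pkp2 were at least 2-fold higher in luminal cells, 2 of 10 members, where 28.4% of all genes were. Cdh3, Dsg3, Dsc3 and Pkp1 were at least 2-fold higher in basal cells, 4 of 10 members, where 18.3% of all genes were. Dsg2, Dsc2, Dsp and Jup lay within 2-fold. The median ratio of the members was -0.09, beside 0.18 over all genes. Plate moved these counts. On plate B alone, 2 members were higher in luminal cells (41.4% of all genes) and only Cdh3 was higher in basal cells (17.2% of all genes). Between basal cells of plate A and luminal cells of plate C the counts were again 2 and 4, with 27.4% and 20.1% of all genes past 2-fold in these directions.

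**Figure D1:**
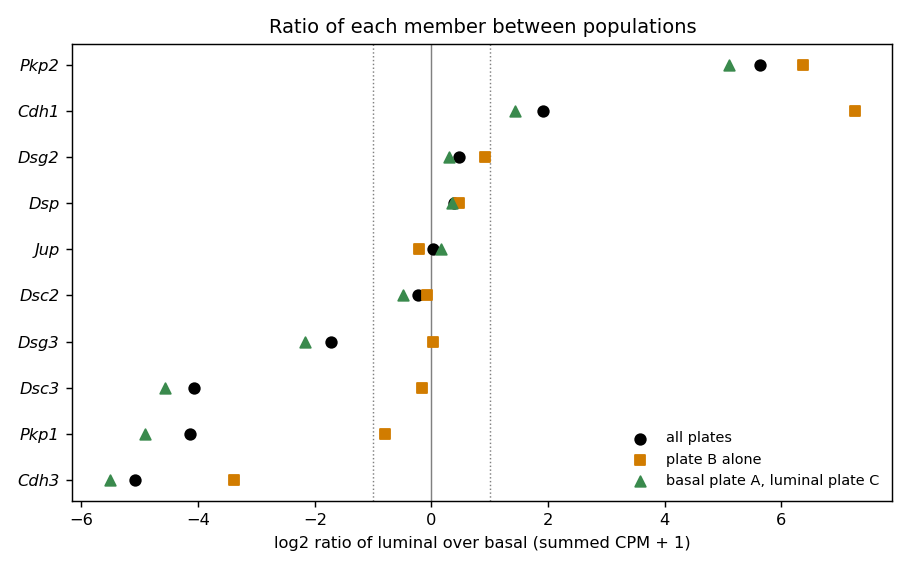
Horizontal position is the log2 ratio of luminal over basal summed CPM, with 1 CPM added, for each of the 10 members, over all plates (circles), on plate B alone (squares) and for basal plate A against luminal plate C (triangles), with dotted lines at 2-fold. Dsg3, Dsc3 and Pkp1 lay at -1.72, -4.08 and -4.13 over all plates and at 0.03, -0.16 and -0.79 on plate B, while Cdh1, Cdh3 and Pkp2 lay past 2-fold in all 3 settings shown.

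Cdh1, which encodes E-cadherin, was the classical cadherin of luminal cells. In single luminal cells it ranged from 0 to 1156 CPM with a median of 132 CPM, and 73 of 76 cells had at least 1 read. In basal cells it ranged from 0 to 622 CPM with a median of 0, and 28 of 72 cells had a read. The ranges overlapped, since several basal cells reached the level of a typical luminal cell, but more basal cells than not had no read. The basal sum of Cdh1 was 51.5 CPM (95% Poisson interval 50.0 to 53.1) and the luminal sum 196 CPM (194 to 199), a raw ratio of 3.81 (3.68 to 3.93), and the log2 ratio was 1.91. Intervals here and below cover counting error only, since PCR copies of a molecule were counted separately.

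The basal Cdh1 reads came almost wholly from plate A. There, 25 of 50 basal cells had a read and the sum was 77.2 CPM (74.9 to 79.5), against 3 reads in the 22 basal cells of plate B, or 0.107 CPM (0.022 to 0.313). Luminal cells of plate B held 169 CPM and those of plate C 209 CPM. The log2 ratio was thus 7.26 on plate B alone and 1.42 between basal plate A and luminal plate C, the same direction with very different sizes. Basal cells of plate B were also the group with the fewest detected genes, and 4 of the 22 held at least 4 of 8 endothelial markers, which summed to 313 CPM there against 9.45 CPM on plate A. The part of gene detection and of these cells in the plate difference was not tested. At full depth, where 1 read is enough, Krt14 was read in 71 of the 72 basal cells of both plates. With every cell thinned to the same depth, it was read in 50 of 50 basal cells of plate A and 17 of 22 of plate B. Krt5 was then read in 46 of 50 and 14 of 22, so detection of these basal markers was also lower on plate B.

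Cdh3, which encodes P-cadherin, showed the opposite pattern. Basal cells ranged from 0 to 836 CPM with a median of 9.27 CPM, and 59 of 72 had a read. Luminal cells ranged from 0 to 1.63 CPM with a median of 0, and 6 of 76 had a read, 7 reads in all. No luminal cell held more than 2 reads, so the groups overlapped only among basal cells at or near 0. Basal cells summed to 35.1 CPM (33.9 to 36.4) and luminal cells to 0.061 CPM (0.025 to 0.126), a raw ratio of basal over luminal of 573 (278 to 1427). The log2 ratio was -5.09, and -3.38 on plate B, where basal cells held 9.96 CPM against 47.7 CPM on plate A. Basal cell 28, on plate A, gave 32.4% of the basal reads, and without it the basal sum was 24.1 CPM.

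**Figure D2:**
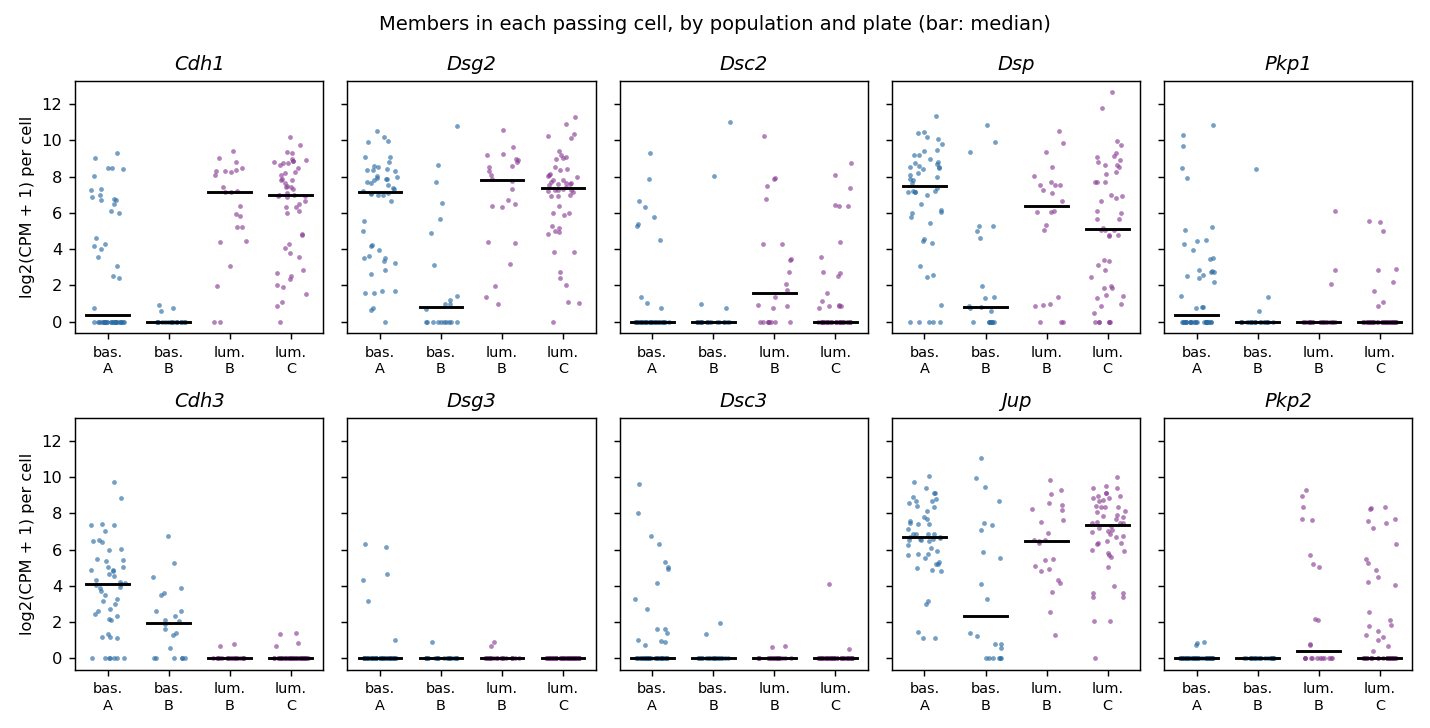
Each point is 1 passing cell at its log2(CPM + 1) level, with basal cells in blue (plates A, B) and luminal cells in purple (plates B, C), with a bar at the median of each plate's cells, for the 10 members. Medians of Dsg2, Dsp and Jup were 141, 181 and 102 CPM in basal cells of plate A and 0.782, 0.758 and 5.20 CPM in those of plate B, while for Cdh1 they were 0.325 and 0 CPM there, against luminal medians of 140 CPM (plate B) and 126 CPM (plate C).

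The family lies on 6 mouse chromosomes in build GRCm38.p6. Cdh3 (chromosome 8, 106510852 to 106556911) and Cdh1 (chromosome 8, 106603350 to 106670247) are tandem neighbours 46438 bases apart. All 4 desmosomal cadherins share a cluster of 643597 bases on chromosome 18, in the order Dsc3 (19960930 to 20002410), Dsc2 (20030633 to 20059554), Dsg3 (20510274 to 20541310) and Dsg2 (20558074 to 20604526). The plaque genes are scattered: Pkp1 on chromosome 1 (135871394 to 135919207), Jup on 11 (100368856 to 100397839), Dsp on 13 (38151294 to 38198577) and Pkp2 on 16 (16213345 to 16272712). Each paralog pair compared further on, other than the plakophilins, thus consists of neighbours on the chromosome.

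To compare the choice between paralogs, levels were taken per kilobase of gene length. Cdh3 made up 43.0% of the Cdh1 and Cdh3 reads per kb in basal cells (exact binomial interval 41.8 to 44.1) and 0.0345% in luminal cells (0.0139 to 0.0711). The basal share went from 40.6% on plate A to 99.0% on plate B, where Cdh1 was nearly unread, while luminal cells were at 0.0354% and 0.0342% on plates B and C. The luminal choice of Cdh1 therefore held on both plates and the basal mixture was a feature of plate A.

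Within basal cells both cadherins could be read in 1 cell. At 50000 reads per cell, 11 of 72 basal cells (15.3%, Clopper-Pearson interval 7.88 to 25.7) had both, 18 had Cdh3 alone, 8 had Cdh1 alone and 35 had neither. The product of the separate detection shares is 10.6%, pooled over plates of unequal detection. All 11 lay on plate A, where the share with both was 22.0% and the product 18.2%. No luminal cell of 76 had both, which allows a share of up to 3.95%, and 60 had Cdh1 alone. At full depth, 24 basal and 6 luminal cells had both, the luminal ones through 1 or 2 reads of Cdh3. A stricter level of at least 10 CPM was reached for Cdh1 in 21 basal cells, for Cdh3 in 36 and for both in 14, and in luminal cells for Cdh1 in 62 and for Cdh3 in 0.

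**Figure D3:**
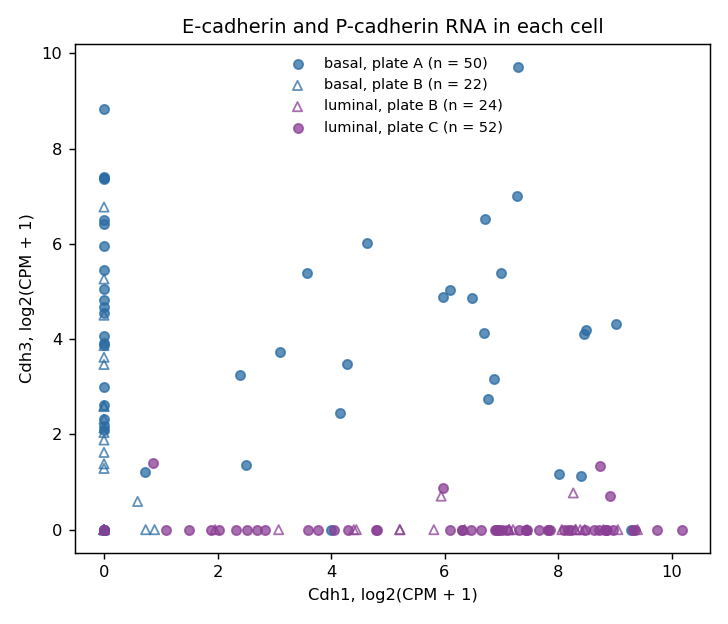
Each point is 1 passing cell, with Cdh1 on the horizontal and Cdh3 on the vertical axis, both as log2(CPM + 1), and with open triangles for plate B. Luminal cells lie along the Cdh1 axis, basal cells of plate B along the Cdh3 axis, and the 14 cells with at least 10 CPM of both are basal cells of plate A.

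Desmogleins are the larger desmosomal cadherins, and Dsg2 is the broadly expressed form of simple epithelia. Dsg2 was present in both populations, from 0 to 1759 CPM in basal cells (median 48.0) and from 0 to 2491 CPM in luminal cells (median 180). The ranges overlapped throughout. The sums were 211 CPM (208 to 214) and 293 CPM (290 to 297), a log2 ratio of 0.47. In basal cells it was read at full depth in 61 of 72 cells, and by plate the sum was 238 CPM on A and 156 CPM on B, where basal cell 69 held 3464 of the 4383 reads. In luminal cells it was read in 75 of 76.

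Dsg3, the desmoglein of stratified epithelia and of keratinocytes, was rare. Only 7 of 72 basal cells had a read, the highest at 79.5 CPM, and 2 of 76 luminal cells had 1 read each. The sums were 2.35 CPM (2.04 to 2.70) and 0.018 CPM (0.002 to 0.063), a raw ratio of basal over luminal of 134 (36.7 to 1116) that rests on those 2 luminal reads. Basal cell 6 held 34.3% of the basal reads, and 197 of 198 basal reads were on plate A. On plate B the log2 ratio was 0.03, with 1 basal and 2 luminal reads. Dsg3 was 1.53% of the desmoglein pair per kb in basal cells (1.33 to 1.76) and 0.00833% in luminal cells (0.00101 to 0.0301), so that Dsg2 was the prevailing desmoglein of both.

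Desmocollins pair with desmogleins. Dsc2, the widely expressed member, was read in a minority of the cells of each population. It ranged from 0 to 2064 CPM in basal cells, with a read in 15 of 72, and from 0 to 1201 CPM in luminal cells, with a read in 34 of 76, and the median was 0 in both. The sums were 50.0 CPM (48.5 to 51.5) and 42.6 CPM (41.4 to 43.8), but single cells carried them. Basal cell 85, on plate B, gave 55.2% of the basal reads and luminal cell 1, on plate B, 43.4% of the luminal reads. The log2 ratio was -0.22 with all cells, 0.88 without basal cell 85 and -0.998 without luminal cell 1, so no direction can be given for Dsc2.

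Dsc3, the desmocollin of basal keratinocytes, was read in 19 of 72 basal cells, up to 786 CPM, and in 4 of 76 luminal cells, up to 15.9 CPM. Its sums were 18.8 CPM (17.9 to 19.8) and 0.175 CPM (0.107 to 0.271), a raw ratio of basal over luminal of 107 (69.3 to 176). The log2 ratio was -4.08, and -2.99 without basal cell 44 of plate A, which gave 56.3% of the basal reads. Luminal cell 40, on plate C, held 17 of the 20 luminal reads, and without it the raw ratio was 709 (242 to 3443), resting on 3 luminal reads. On plate B the basal sum was 0.178 CPM, from 5 reads, and the log2 ratio was -0.16. Dsc3 was 23.9% of the desmocollin pair per kb in basal cells (22.8 to 24.9), from 48.9% on plate A to 0.147% on plate B. Luminal cells had a share of 0.341% (0.208 to 0.526). At 50000 reads, 1 of 72 basal cells had both desmocollins, 7 had Dsc3 alone and 9 had Dsc2 alone.

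**Figure D4:**
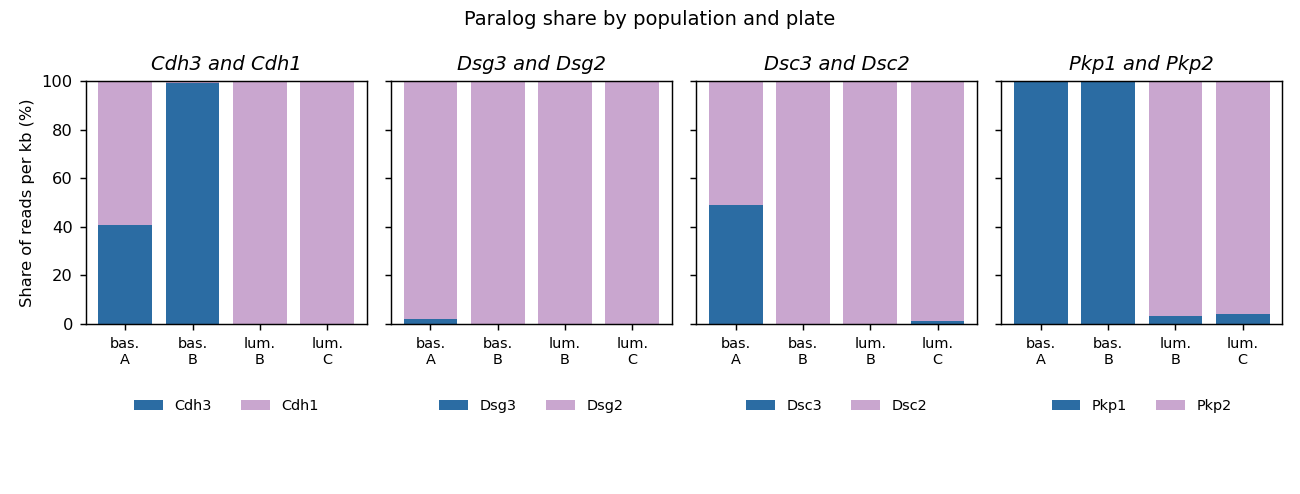
Bars give the share of reads per kb within each paralog pair, as percent, for each plate of basal (A, B) and of luminal cells (B, C). The Pkp1 share was 99.9% and 100% in basal cells and 3.16% and 3.88% in luminal cells. Its direction was the same on both plates of a population, but the basal share of plate B rests on 220 reads in 3 of 22 cells. The basal shares of Cdh3 and Dsc3 differed between plates A and B.

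Dsp, the plakin that links desmosomes to keratin, was abundant in both populations. It ranged from 0 to 2609 CPM in basal cells (median 79.5, read in 59 of 72) and from 0 to 6393 CPM in luminal cells (median 56.8, read in 67 of 76). The ranges overlapped and the order of the medians was the reverse of that of the sums, which were 285 CPM (281 to 288) for basal and 372 CPM (369 to 376) for luminal cells. Luminal cell 89, on plate C, gave 33.4% of the luminal Dsp reads. Without it the log2 ratio moved from 0.39 to -0.17, so no direction can be given for Dsp.

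Jup, or plakoglobin, the only member that serves both adherens junctions and desmosomes, was the most evenly read. Basal cells ranged from 0 to 2137 CPM (median 92.0, read in 66 of 72) and luminal cells from 0 to 1009 CPM (median 133, read in 75 of 76). The sums were 212 CPM (209 to 215) and 217 CPM (214 to 220), a log2 ratio of 0.03. Its value was -0.22 on plate B alone, 0.16 between basal plate A and luminal plate C, and -0.22 under median-of-ratios scaling, so its sign was not fixed while each of these sizes was small.

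The plakophilins were divided between the populations. Pkp1, the plakophilin of stratified epithelia, ranged from 0 to 1828 CPM in basal cells, with a read in 28 of 72, and from 0 to 68.9 CPM in luminal cells, with a read in 12 of 76. Its median was 0 in both, and a minority of basal cells carried the level. The sums were 66.2 CPM (64.4 to 67.9) and 2.83 CPM (2.53 to 3.16), a raw ratio of basal over luminal of 23.4 (20.9 to 26.2) and a log2 ratio of -4.13. Basal plate A held 95.3 CPM and basal plate B 7.85 CPM, and on plate B the log2 ratio was -0.79. Basal cell 45, on plate A, gave 32.2% of the basal reads, and without it the ratio was -3.60. Luminal cell 2 gave 42.1% of the luminal reads, and without it the raw ratio was 39.7 (34.3 to 46.2).

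Pkp2, the plakophilin of simple epithelia and heart muscle, was read in 36 of 76 luminal cells, up to 632 CPM, and the cells with a read had a median of 29.8 CPM. In basal cells 3 of 72 had 1 read each. Luminal cells summed to 50.2 CPM (48.9 to 51.5) and basal cells to 0.036 CPM (0.007 to 0.104), a raw ratio of 1410 (482 to 6837) that rests on those 3 reads, and the log2 ratio was 5.63. On plate B the log2 ratio was 6.37, with 0 reads in 22 basal cells, which allows up to 0.107 CPM, and 81.5 CPM in luminal cells. Pkp1 was 99.9% of the pair per kb in basal (99.76 to 99.98) and 3.50% in luminal cells (3.13 to 3.90). At 50000 reads, 25 luminal cells had Pkp2 alone, 5 had Pkp1 alone and 2 had both, and 12 basal cells had Pkp1 alone. The lists of lineage genes that came to the study from earlier bulk profiles hold Pkp2 as luminal and Cdh3 and Dsc3 as basal, so the directions of these members were known in advance. Of the further genes named below, those lists hold Nectin4 as luminal and Nectin3, Cdh13, Snai2 and Trp63 as basal.

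Detection depends on depth, and was therefore compared at 50000 reads per cell. Cdh1 was read in 26.4% of basal cells (16.7 to 38.1) and 78.9% of luminal cells (68.1 to 87.5), and Cdh3 in 40.3% (28.9 to 52.5) and 0%. Dsg2 was read in 62.5% (50.3 to 73.6) and 84.2% (74.0 to 91.6), Jup in 76.4% (64.9 to 85.6) and 89.5% (80.3 to 95.3), and Dsp in 65.3% and 65.8%. These 3 genes were the members detected most often in both populations, apart from Cdh1 in luminal cells. Pkp2 was read in 0% of basal and 35.5% of luminal cells (24.9 to 47.3), Pkp1 in 16.7% and 9.21%, Dsc2 in 13.9% and 17.1%, Dsc3 in 11.1% and 0%, and Dsg3 in 4.17% and 0%. By the count of 3 cells a share of 0 allows up to 4.17% of basal and 3.95% of luminal cells at this depth (the Clopper-Pearson bounds are 4.99% and 4.74%). At full depth Cdh3 was read in 7.89%, Dsc3 in 5.26% and Dsg3 in 2.63% of luminal cells, and Pkp2 in 4.17% of basal cells. For comparison at this depth, the 8 basal markers were read in 1.32% (Krt5) to 22.4% (Krt14) of luminal cells, with a median of 5.26%, and the 8 luminal markers in 0% (Elf5) to 86.1% (Epcam) of basal cells, with a median of 18.1%. The luminal share of Pkp1 lay within the former range, and how many of these reads were stray was not tested.

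**Figure D5:**
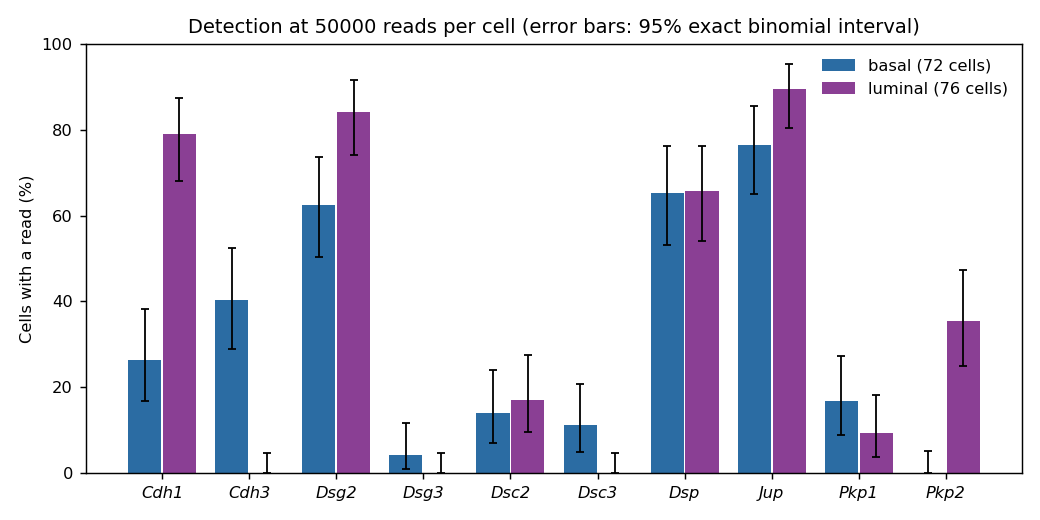
Bars give the percent of basal (blue) and luminal (purple) cells with at least 1 read of each member after thinning to 50000 reads per cell, and error bars the exact binomial interval of that count of cells, which compares no populations. Cdh1 stood at 26.4% and 78.9% and Dsg2 at 62.5% and 84.2%, with a basal share of Dsg2 that ran from 78.0% (plate A) to 27.3% (plate B).

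The shared desmosome set, Dsg2 with Dsp and Jup, was read together in 33 of 72 basal cells (45.8%, 34.0 to 58.0) and 41 of 76 luminal cells (53.9%, 42.1 to 65.5). By plate, 31 of 50 basal cells on A, 2 of 22 basal cells on B, 15 of 24 luminal cells on B and 26 of 52 luminal cells on C had all 3. Basal cells of plate A and luminal cells of plate B thus stood at 62.0% and 62.5%, and basal cells of plate B at 9.09%. A cell held a median of 3 members in basal and 4 in luminal cells at this depth, and 6 basal cells, all on plate B, and 1 luminal cell held none.

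Basal cells of plates A and B differed across the family. Of the 10 members, Cdh1, Cdh3, Dsg3, Dsc3 and Pkp1 were at least 2-fold higher on plate A, where 41.6% of all genes were, and Dsc2 was at least 2-fold higher on plate B, where 13.6% of all genes were, with 2323 of its 2835 reads there from basal cell 85. The median log2 ratio of plate B over plate A was -1.52 for the members and -0.57 for all genes. The sums of Dsp (338 and 178 CPM), Dsg2 (238 and 156 CPM) and Jup (203 and 230 CPM) lay within 2-fold. Single cells carried much of these plate B sums. Basal cell 94 held 2541 of 4996 Dsp reads, cell 69 3464 of 4383 Dsg2 reads and cell 64 2764 of 6440 Jup reads. Cell medians of Dsp, Dsg2 and Jup were 181, 141 and 102 CPM on plate A, against 0.758, 0.782 and 5.20 CPM on plate B. With 41.6% of all genes past that size, 5 of 10 members is a share near the background.

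Per length, the order of the members was led by the same plaque and desmoglein genes in both populations, with Cdh1 joining them in luminal cells. In basal cells the levels in RPKM, the summed CPM divided by gene length in kb, were 42.3 for Jup, 36.8 for Dsg2, 29.7 for Dsp, 14.7 for Pkp1, 11.7 for Cdh1, 11.3 for Dsc2, 8.80 for Cdh3, 3.55 for Dsc3, 0.573 for Dsg3 and 0.0123 for Pkp2. Of neighbours in this order, Cdh1 and Dsc2 did not differ beyond counting error. In luminal cells the levels were 51.2 for Dsg2, 44.4 for Cdh1, 43.3 for Jup, 38.8 for Dsp, 17.4 for Pkp2, 9.65 for Dsc2, 0.631 for Pkp1, 0.033 for Dsc3, 0.0153 for Cdh3 and 0.0043 for Dsg3. Here Cdh1 and Jup were close, while Dsc3 and Cdh3, and Cdh3 and Dsg3, did not differ beyond counting error.

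Correlations between members over cells were weak. At 50000 reads, Spearman's rho over the 72 basal cells lay between 0.05 and 0.35 for 10 pairs of the more often detected members (median 0.23), the highest being Dsg2 with Dsp. Over the 76 luminal cells it lay between -0.08 and 0.28 (median 0.12), the highest being Cdh1 with Jup. The genes most like Cdh1 over luminal cells were Atp5g2 (rho 0.41), Zbtb38 (0.41) and Usp16 (0.40), of 5679 compared, and those most like Cdh3 over basal cells were Slc29a1 (0.47), Syncrip (0.43) and Ythdf3 (0.43), of 4351. All these values share the cells' libraries and detection rates, and in sparse counts they are descriptions only.

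Beside the members, 36 further genes of adherens junctions and desmosomes were listed, and 25 of them passed the gene filter. Of these, 5 were at least 2-fold higher in luminal and 13 in basal cells (28.4% and 18.3% of all genes), and 7 lay within 2-fold. Their median log2 ratio was -1.13, beside 0.18 over all genes. On plate B alone 6 were higher in luminal and 11 in basal cells (41.4% and 17.2% of all genes). The median there was -0.80, beside 0.48 over all genes. Between basal plate A and luminal plate C the counts were 5 and 9 (27.4% and 20.1% of all genes). The median was then -0.26, beside 0.09 over all genes. Dsg1b, Dsg1c and Dsc1, desmosomal cadherins of the upper epidermis, were among the 11 that did not pass the filter. The 13 higher in basal cells include Cdh4, Cdh5, Cdh10 and Cdh11, each under 10 CPM and named after their values were seen. Without the basal cell with most reads of each, their log2 ratios were -0.05, 0.23, -0.51 and -0.68, all within 2-fold. Cdh5 is also 1 of the 8 endothelial markers, and basal cell 72 gave 83.9% of its basal reads. The count of 13 thus leans in part on single cells.

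Towards luminal cells stood Nectin4, an immunoglobulin-like adhesion receptor that works beside cadherins, with 0.048 CPM in basal cells (4 reads) and 63.4 CPM in luminal cells (log2 ratio 5.94, and 5.71 on plate B). Nectin2 followed at 8.52 and 62.0 CPM (2.73), and basal cell 90, which carried luminal markers, gave 60.4% of its basal reads. Ppl, the plakin periplakin, stood at 9.82 and 24.5 CPM (1.23), but its ratio was -0.24 between basal plate A and luminal plate C and 0.55 without luminal cell 5. Cdh6 had a ratio of 5.05, but luminal cell 86 gave 97.3% of its luminal reads, and without it the ratio was 0.86. Evpl (envoplakin), the fifth, was named after its values were seen, at 0.036 and 4.53 CPM.

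Towards basal cells stood Ctnnd2, a delta-catenin of the cadherin tail, with 549 CPM in basal cells, against 18.0 CPM in luminal cells (log2 ratio -4.85, and -8.58 on plate B). Luminal cell 63, which carried basal markers, gave 39.3% of the luminal Ctnnd2 reads. Perp, a tetraspan desmosome protein known as a target of p63, stood at 474 and 80.4 CPM (-2.54) and Pkp4 at 270 and 83.8 CPM (-1.68). Ctnnal1, an alpha-catenin relative, had a ratio of -4.51, with 54.5% of basal reads from basal cell 69. Cdh13, a cadherin with a lipid anchor, had -3.16. Pkp3 had -1.23, but -0.82 without basal cell 8. Nectin1 had -1.49, but 0.27 on plate B. Nectin3 had -1.14, but -0.27 without basal cell 70 and -0.41 between basal plate A and luminal plate C. Cdh2, or N-cadherin, had -3.09, with 75.8 CPM in basal cells of plate B and 2.30 CPM in those of plate A, and its ratio between basal plate A and luminal plate C was 0.24. Basal cell 64 held 1106 of the 2125 Cdh2 reads in basal cells of plate B, where 5 of 22 cells had a read. Without that cell the ratio over all plates was -2.18.

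Of the catenins that bind classical cadherins, Ctnna1, Ctnnb1 and Ctnnd1, named here after their values were seen, lay within 2-fold, unlike Ctnnd2 above. Ctnna1 stood at 592 and 499 CPM, Ctnnb1 at 466 and 778 CPM and Ctnnd1 at 146 and 162 CPM in basal and luminal cells, with log2 ratios of -0.25, 0.74 and 0.15. On plate B alone Ctnnb1 reached 1.64, past 2-fold towards luminal cells, while Ctnna1 and Ctnnd1 were at -0.21 and -0.82.

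Of 13 transcription factors known for acting on E-cadherin or on epithelial identity, 12 passed the filter, 4 at least 2-fold higher in luminal and 2 in basal cells (28.4% and 18.3% of all genes), with a median log2 ratio of 0.17. The median over all genes was 0.18. On plate B alone the counts were 2 and 4 (41.4% and 17.2% of all genes), with a median of -0.12, beside 0.48 over all genes. Between basal plate A and luminal plate C they were 4 and 2 (27.4% and 20.1% of all genes). The median was then -0.36, beside 0.09 over all genes. Snai2, or Slug, a repressor of Cdh1, stood at 138 CPM in basal cells, against 0.981 CPM in luminal cells (log2 ratio -6.13). Its basal sum was 122 CPM on plate A and 170 CPM on plate B. Trp63, the p63 factor of basal epithelia, stood at 132 and 5.37 CPM (-4.38), and luminal cell 63 gave 92.8% of its luminal reads. Grhl1, a Grainyhead factor, stood at 2.23 and 34.7 CPM (3.47). The other 3 higher in luminal cells, Grhl3, Ovol2 and Zeb1, stayed under 10 CPM in both and were named after their values were seen. Zeb1 stood at 0.641 and 2.33 CPM (1.02), but at -1.07 on plate B. Luminal cell 55 gave 42.1% of its luminal reads, and without that cell the ratio was 0.52, so no direction can be given for Zeb1.

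Leaving out 4 cells that carried many reads of the other lineage's markers moved the members' ratios by less than 0.1. Without basal cells 13 and 90 and luminal cells 25 and 63, the log2 ratios were 1.88 for Cdh1, -5.16 for Cdh3, -4.11 for Dsc3, -4.15 for Pkp1 and 5.66 for Pkp2. These cells are not exactly those whose other markers outweighed their own. Basal cell 72, with 52.4 CPM of basal and 436 CPM of luminal markers, was kept. Luminal cell 25 was left out although its luminal markers (3162 CPM) outweighed its basal ones (1016 CPM). Without the 6 basal and 19 luminal cells that held at least 4 of 8 endothelial, immune, fibroblast or pericyte markers, the counts of members at least 2-fold higher were again 4 in basal and 2 in luminal cells. Cdh1 then had a log2 ratio of 1.73 and Cdh3 of -5.17.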

How the data were processed

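The authors mapped read pairs to mm10 with Subread, assigned them by featureCounts to genes of the RefSeq annotation built into Rsubread, and deposited raw counts per gene and cell. Versions, strand setting and the treatment of multiply mapped reads are not given in the sources used here, so paralogs and overlapping genes may share reads, and gene counts do not separate transcript isoforms. Symbols and coordinates came from RefSeq GRCm38.p6: 25275 identifiers matched and 1904, with 1.94% of counts, did not and were left out. After removal of 15 mitochondrial and 121 ribosomal protein genes, basal cells needed 50000 reads and 1000 genes and luminal cells 100000 reads and 1500 genes. No pair of cells held identical counts. Doublets were not called by a program, since the study viewed each capture site by microscope. Cells were thinned without replacement by a seeded draw. Sums have exact Poisson and shares exact Clopper-Pearson intervals, at 95%, and zeros carry an upper limit of 3 counts.

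The ratio step was run on simulated Poisson counts with known differences. These held no plate differences and no extra spread between cells, so the run checks the calculation and not the ratios of the real data. All members were named, and of the further genes those with at least 10 CPM in a population and a 2-fold difference. The members and lists were chosen with earlier results of these data known. Python 3.11.15 with numpy 2.4.6, pandas 2.3.3 and scipy 1.17.1 was used, and edgeR 4.0.16 in R 4.3.3 for TMM factors alone. Alternatives covered cells, plates, filters, scaling, added CPM and depth.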

Additional observations from a re-analysis of the deposited data

Results flagged for a closer look

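The cells below the depth thresholds entered no comparison, yet they held reads of the members. In the 24 basal cells below them the 10 members summed to 586 CPM (156 reads), above the 11.3 CPM that 3 reads would give, and 19 of the 24 had at least 1 read. The passing basal cells stood at 932 CPM. In the 14 luminal cells below the thresholds the members summed to 1822 CPM (752 reads), above 7.27 CPM for 3 reads, with a read in 12 of 14, and passing luminal cells stood at 1175 CPM. The origin of these reads was not tested.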

How the results depend on the processing

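No paired analysis was possible because replicate numbers here merely count cells, and no result here comes from a test. Of 56 recomputed counts of members and further junction genes, 53 stayed within 1.5 times of the reported count. The exceptions were members higher in basal cells on plate B alone (1), and, with 10 CPM added, further genes higher in basal (6) and luminal cells (3). Of 130 recomputed member ratios 60 stayed within their counting interval, 69 moved out of it and 1 reversed, Dsg3 on plate B (0.026). Only members at least 2-fold apart could count as reversed. Of the rest, Jup changed sign in 5 of 13 settings, and Dsc2 and Dsp in 1 each. TMM and median-of-ratios scaling put the median log2 ratio of all genes at 0.03 and 0.01 in place of 0.18. Of 64 recomputed paralog shares 48 moved by less than their interval. In basal cells the Cdh3 share was 99.0% on plate B, 40.6% on plate A, 40.6% without division by length and 48.1% from mean CPM per cell. The Dsg3 share was 0.0318%, 2.01%, 1.10% and 1.96% in the same order, and the Dsc3 share 0.147%, 48.9% and 27.4% in the first 3. The basal Pkp1 share was 100% on plate B. In luminal cells the Dsg3 share was 0% on plate C, the Dsc3 share 0.0471% on B and 1.11% on C, and the Pkp1 share 5.33% without division by length. Basal cells with both Cdh1 and Cdh3 were 33.3% when not thinned, 5.56% at 5 or more reads and 0% on plate B, and luminal ones 7.89% when not thinned. Beyond the plates and depths named, the cause of these shifts was not tested. Detection of members moved in 39 of 180 recomputed shares. Leaving out cells with markers of other cell types, detection on plate A or C alone, and single cells left out for further genes were alternatives chosen after seeing the data. Depth limits low genes most: Dsg3, Dsc3 and Cdh3 in luminal cells and Pkp2 in basal cells rest on 2, 20, 7 and 3 reads.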
